A study of Mus musculus with 48 samples.

Results

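The response of the actin cytoskeleton to stretching was followed in 36 genes, which encode serum response factor (SRF), actins, and proteins that bind, bundle, anchor or turn over actin filaments. They were taken as a list of symbols, drawn up as actin cytoskeleton and SRF target genes. All 36 of 36 were found among the 47480 gene symbols of both count tables. By role, 1 member encodes SRF, 4 encode actins, 9 encode actin-binding and contractile proteins of the smooth muscle type, 10 encode focal adhesion and LIM domain proteins, 6 encode crosslinkers and stress fibre scaffolds, and 6 act in filament turnover and nucleation. The cells were C2C12, an immortal mouse muscle precursor line, as proliferating myoblasts or after differentiation toward myotubes. They were grown on flexible collagen-coated plates and either stretched cyclically in all directions or left on identical plates, with no other treatment, for 1 h, for 3 h or for 6 h. This gave 12 groups of 4 libraries, 48 in all, each stretched group with non-stretched cells of its own time. Among myoblast libraries, replicates 7 and 8 belonged to experiment B27 and replicates 9 and 10 to B31. The label of stretched replicate 9 at 1 h reads B231 and its column B31, and it was taken here as B31. Differentiated libraries came from B25 (replicates 7 and 8) and B28 (replicates 9 and 10), except that the stretched group at 1 h held replicates 4, 7, 8 and 9, with replicate 4 from another experiment (B17). All results therefore describe a single line in culture.

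SRF is a transcription factor that binds the CArG box, a short motif in which A and T bases are flanked by a pair of C and a pair of G. Its partner MRTF (Mkl1 and Mkl2) is held by actin monomers and enters the nucleus when monomers are used up in filaments, so that genes for actin and its binding proteins can be switched on as filaments are built. Ternary complex factors such as Elk1 are a different set of SRF partners that act downstream of MAP kinases on immediate early genes. In muscle, the cytoplasmic actins are abundant in precursors, and sarcomeric proteins take their place as fibres mature.

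Each library held between 48447318 and 77080730 counts, and all 36 members passed the filter on low counts in every comparison. The stage labels could be checked with markers. Myog, a master regulator of differentiation, was between 0.394 and 3.30 CPM (counts scaled to a common library size) in the 24 myoblast libraries and between 710.5 and 943.1 CPM in the 24 differentiated libraries. Proliferation markers (Mki67, Top2a, Ccnb1 and Ccna2) were lower in differentiated cells but not at 0: their summed level was between 210.8 and 618.6 CPM there and between 1476.3 and 1856.5 CPM in myoblasts.

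CArG boxes were looked for in the RefSeq promoters of GRCm38.p6, windows from 250 bases before to 50 bases after an annotated start. The box was taken as a pair of C, 6 bases that are each A or T, and a pair of G, a pattern that is its own reverse complement, so that 1 search covers both strands. Promoters of 30 of the 36 members were matched, without Actb, Actg2, Tagln, Tgfb1i1, Synpo and Diaph1. An exact box lay in a promoter of 9 of these 30 genes (30.0%), against 488 of all 27025 genes with a promoter (1.81%). With 1 of the 6 central bases allowed to be C or G, 11 of 30 members (36.7%) and 11.3% of all genes had a match. Since the members were listed partly as SRF target genes, a higher share of boxes than among all genes can follow from that choice. It is not read as a result about actin genes. A match is a description of the sequence and was not tested for binding. The stretches around these boxes are shown 5′ to 3′ on the gene's strand, with the box in capitals, because they hold the motif that SRF is known to bind. They start with Srf itself, which held a pair of boxes. Acta2 is added as an actin gene well known as an SRF target, although each of its boxes had 1 central base off the motif.
Srf, chr17:46556200-46556259 (minus strand): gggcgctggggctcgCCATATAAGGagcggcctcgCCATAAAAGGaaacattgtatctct
Actg1, chr11:120348561-120348600 (minus strand): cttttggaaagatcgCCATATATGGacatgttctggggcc
Fhl2 start A, chr1:43163968-43164007 (minus strand): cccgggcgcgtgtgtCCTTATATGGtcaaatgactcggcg
Fhl2 start B, chr1:43196838-43196867 (minus strand): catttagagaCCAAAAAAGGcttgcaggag
Fhl1, chrX:56779566-56779605 (plus strand): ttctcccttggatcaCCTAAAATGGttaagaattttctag
Lima1, chr15:99820172-99820211 (minus strand): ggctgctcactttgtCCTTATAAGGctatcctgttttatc
Filip1l, chr16:57549165-57549204 (plus strand): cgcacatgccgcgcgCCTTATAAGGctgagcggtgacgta
Cnn2, chr10:79988529-79988568 (plus strand): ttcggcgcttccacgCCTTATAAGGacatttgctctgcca
Myl9, chr2:156775288-156775327 (plus strand): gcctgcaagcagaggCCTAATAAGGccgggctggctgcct
Vcl, chr14:20929156-20929195 (plus strand): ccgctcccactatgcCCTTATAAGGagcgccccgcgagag
Acta2 upstream box, chr19:34255438-34255467 (minus strand): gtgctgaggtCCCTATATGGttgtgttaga
Acta2 downstream box, chr19:34255388-34255417 (minus strand): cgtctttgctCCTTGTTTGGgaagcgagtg

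The Actg1, Cnn2, Myl9 and Vcl stretches lay outside every GENCODE vM21 transcript, and the Srf stretch lay in no exon but in an intron of the noncoding gene Gm26904. The stretches of Fhl1, Lima1, Filip1l and the first Fhl2 start were intronic to longer transcripts of the same gene. Outside any exon, the Lima1 stretch also overlapped a transcript of Gm17057 and the Filip1l stretch a transcript of Cmss1. Those of Acta2 and of the other Fhl2 start overlapped an annotated exon of the gene. The CCTTATAAGG form of the box was shared by Lima1, Filip1l, Cnn2 and Vcl.

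**Figure D1:**
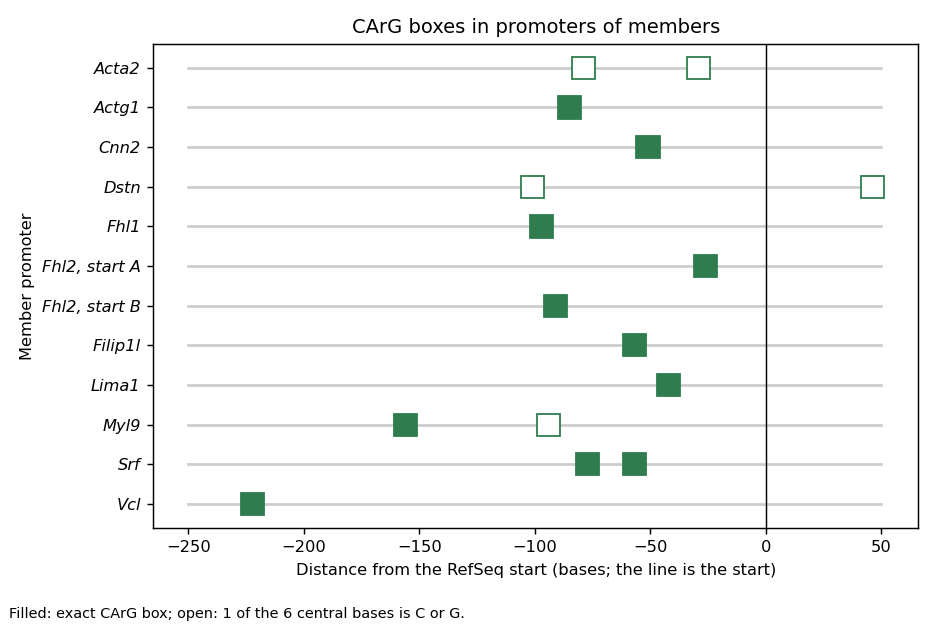
Position of CArG boxes in promoters of members, in bases from the RefSeq start (line at 0). Each grey line is a window from 250 bases before to 50 bases after a start, filled boxes are exact matches and open boxes have 1 central base that is C or G. All boxes of Srf and Fhl2 lay before the start, and the Vcl box lay farthest from it, with its first base at -227.

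The members covered a wide range of levels. Per kb of exon, the cytoplasmic actin genes led in non-stretched myoblasts, with a mean of 2872 CPM per kb for Actb and 2561 CPM per kb for Actg1 (n = 12 libraries), and Cnn1, a calponin of smooth muscle, was lowest at 1.30 CPM per kb. In non-stretched differentiated cells Actb was at 1093 CPM per kb and Actg1 at 997.1 CPM per kb, close to Acta2, the smooth muscle α-actin, at 923.9 CPM per kb, which stood at 243.0 CPM per kb in myoblasts. Between stages, the log2 difference in mean level (differentiated over myoblasts) was largest upward for Palld (2.48), Synpo (2.37) and Acta2 (1.93), and largest downward for Cnn1 (-2.33), Tagln2 (-2.11) and Tpm4 (-1.47). These stage differences carry no test, since the stages were scaled separately and came from different experiments. They also differed in serum and plating density, so that stage cannot be told apart from experiment, serum or density. Levels of Actg1, Actb, Tpm4 and Cfl1 are uncertain to the extent that other genes hold the same sequence: between 13.2% (Cfl1) and 40.2% (Actg1) of their 31-base stretches also occurred in transcripts of other genes, against at most 2.92% for the other members.

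**Figure D2:**
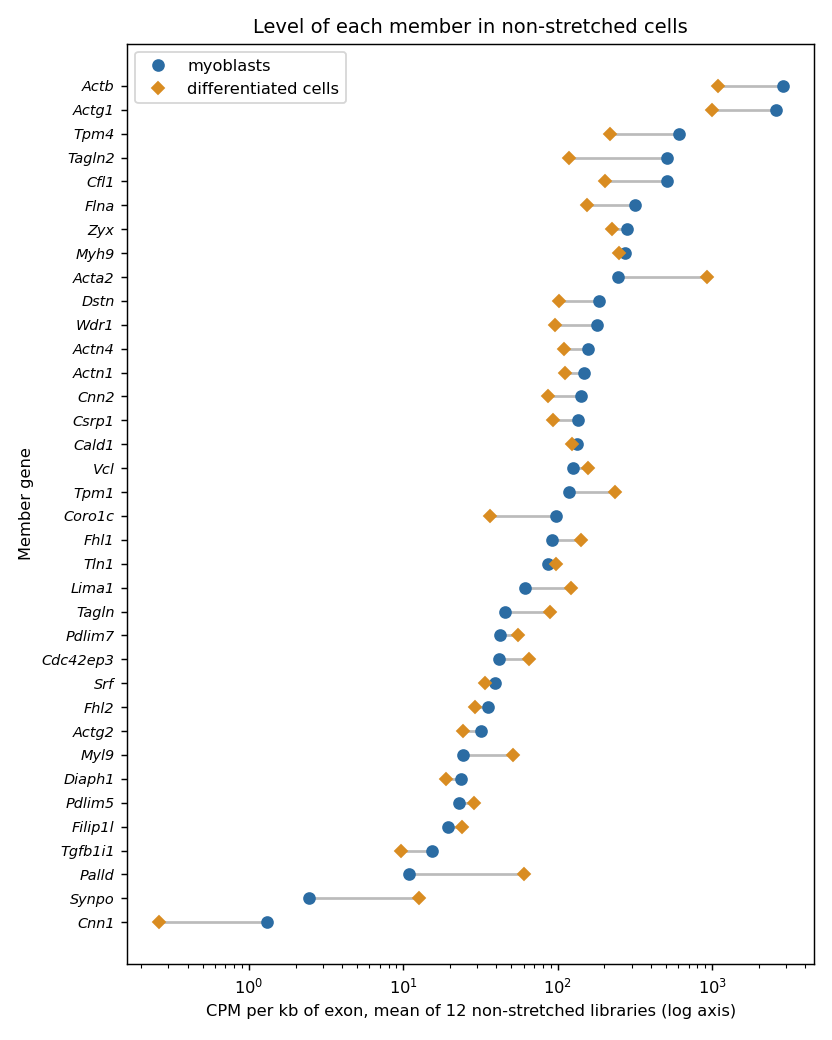
Mean level of each member in non-stretched myoblasts (circles) and differentiated cells (diamonds), in CPM per kb of exon on a log axis, each the mean of 12 libraries. Actb and Actg1 lie at the top, and Acta2, Palld and Synpo are among the members with the larger distance between stages.

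Some libraries stood apart for the members as a group. For each library, the median over the 36 members of log2 CPM minus the non-stretched mean of that time was taken. At 1 h in differentiated cells this was 0.403 in stretched replicate 4 and 0.052, 0.054 and 0.005 in stretched replicates 7, 8 and 9. Replicate 4 was also highest in the summed level of the proliferation markers, at 618.6 CPM, while the other 7 libraries of that time lay between 285.0 and 408.2 CPM. Its summed level of the undifferentiated myoblast markers (Myod1, Myf5, Pax7, Id1 and Id3) was 236.2 CPM, within the range of 221.8 to 247.4 CPM of the others. Without stretch, mean Myod1 and Pax7 were higher in differentiated cells (161.1 and 32.2 CPM) than in myoblasts (104.4 and 27.8 CPM), while Myf5, Id1 and Id3 were lower. The sum thus mixes markers that go in opposite directions between stages and is a weak guide to undifferentiated cells. In non-stretched differentiated cells, replicates 7 and 8 lay below replicates 9 and 10 at 1 h (-0.087 and -0.036 against 0.062 and 0.071) and at 3 h (-0.067 and -0.054 against 0.041 and 0.087). The part that proliferating cells or the experiment played in these values was not tested. In cultures that mix cell types, fewer cells of a type and less RNA per cell cannot be told apart.

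**Figure D3:**
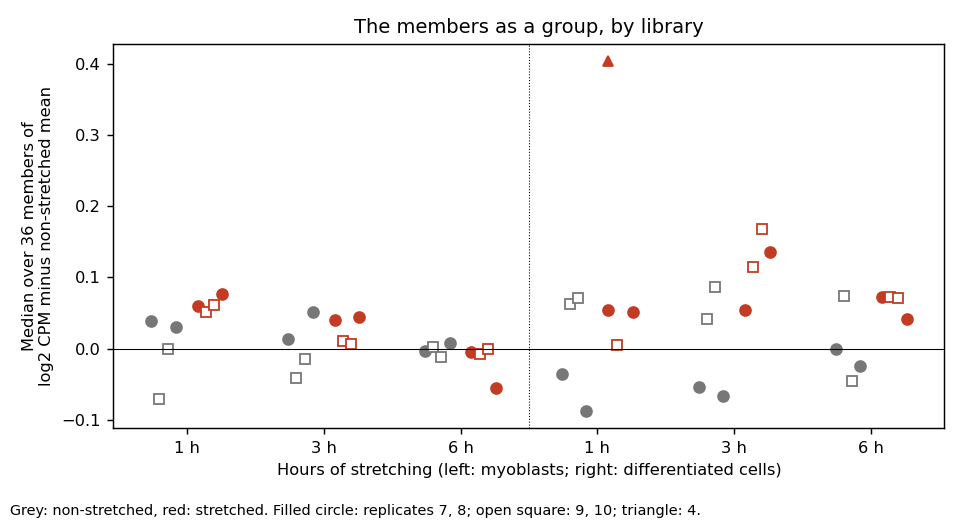
Median over the 36 members of log2 CPM minus the mean of the non-stretched libraries of the same time, 1 point per library, with stretched libraries in red and non-stretched in grey, filled circles for replicates 7 and 8 and open squares for 9 and 10. At 1 h in differentiated cells the stretched replicate 4 (triangle) sits at 0.403, above the other stretched libraries, and all stretched libraries of differentiated cells at 3 h lie above 0.

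With stretching, the members moved by little. A member was counted as changed at an edgeR adjusted p-value under 0.05 over all genes tested, and the study's further limit of 0.58 on the log2 fold change was counted beside it. In myoblasts, 5 of 36 members (13.9%) changed at 1 h, 4 higher and 1 lower, where 5.92% of all genes tested changed (1.67% higher and 4.24% lower). At 3 h, 14 members (38.9%) changed, 9 higher and 5 lower, against 31.9% of all genes (16% higher and 15.8% lower). At 6 h, 8 members (22.2%) changed, 2 higher and 6 lower, against 27.2% of all genes (14.1% higher and 13% lower). The shares at 3 h and 6 h were thus near the background. Of the 4 proliferation markers, 0 changed at 1 h, while at 3 h Ccnb1 was higher and Top2a lower, and at 6 h 3 were lower, by between 0.11 and 0.14 on the log2 scale. Of the 5 undifferentiated myoblast markers, 0 changed at 1 h. At 3 h Id1 and Id3, for inhibitors of myogenic factors, were higher by 0.43 and 0.33, and the summed level of the 5 was between 336.3 and 387.3 CPM without stretch and between 392.7 and 452.1 CPM with it. At 6 h Myf5, Id1 and Id3 were higher by 0.40, 0.21 and 0.28 and Pax7 was at -0.23, with summed levels of 310.3 to 352.0 and 330.5 to 405.5 CPM. Myog, at no more than 3.30 CPM in any myoblast library, was lower at 3 h (log2 fold change -0.82) and 6 h (-0.54). The part of any of these markers in the members' values was not tested. With all 24 myoblast libraries fitted together, the calls of Synpo at 1 h and of Acta2, Tagln, Tagln2, Tpm1 and Cfl1 at 3 h were lost.

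In differentiated cells, 0 of 36 members changed at 1 h by edgeR, where 0.663% of all genes did. At an unadjusted p under 0.05 there were 3, and DESeq2 called 1, Filip1l. At 3 h, 9 members (25%) changed, 8 higher and 1 lower, against 22.2% of all genes tested (10.8% higher and 11.4% lower). At 6 h, 9 members again changed, 8 higher and 1 lower, against 22.3% of all genes (11.5% higher and 10.8% lower). With both directions counted, these shares were near the background, while 22.2% of the members were higher at each of these times. At 3 h the proliferation markers Ccnb1 and Top2a were also higher, by 0.34 and 0.12 (edgeR adjusted p = 0.0172 and 0.0434), and their part in the members' values was not tested. The undifferentiated myoblast markers gave 0 calls at 1 h and 3 h, while at 6 h Myf5 was higher by 0.51 and Id1 and Id3 were at -0.26 and -0.60. Their summed level was then 243.9 to 260.2 CPM without stretch and 228.8 to 251.5 CPM with it, and their part was not tested either. With experiment as a covariate, 14 members changed at 3 h, in a fit for which the share of all genes was not taken. With all 24 differentiated libraries fitted together, the calls of Acta2, Wdr1 and Cfl1 at 3 h and of Actb, Actg1, Cald1, Cfl1 and Actn1 at 6 h were lost. Past both limits there was 1 member in the 6 comparisons, Fhl2 in differentiated cells at 3 h, where 1.63% of all genes passed both. In the other comparisons 1.25%, 1.71% and 2.17% of all genes passed both in myoblasts, by time, and 0.27% and 2.04% in differentiated cells at 1 h and 6 h. No other changed member reached the fold limit. The median log2 fold change of the members was 0.06, 0.04 and -0.01 in myoblasts at the 3 times, and 0.14, 0.13 and 0.05 in differentiated cells, and that of all genes tested was between -0.007 and 0.002. The log2 fold change was above 0 for 33, 25 and 15 of the 36 members in myoblasts at the 3 times. In differentiated cells it was above 0 for 35, 28 and 25 of 36. Of all genes tested, 51.1%, 48% and 50% were above 0 in myoblasts and 49.9%, 49.7% and 50% in differentiated cells. The 1 h values of differentiated cells include stretched replicate 4, whose median over the members was 0.403. That median was 0.052, 0.054 and 0.005 in stretched replicates 7, 8 and 9, within the range of -0.087 to 0.071 of the non-stretched libraries.

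**Figure D4:**
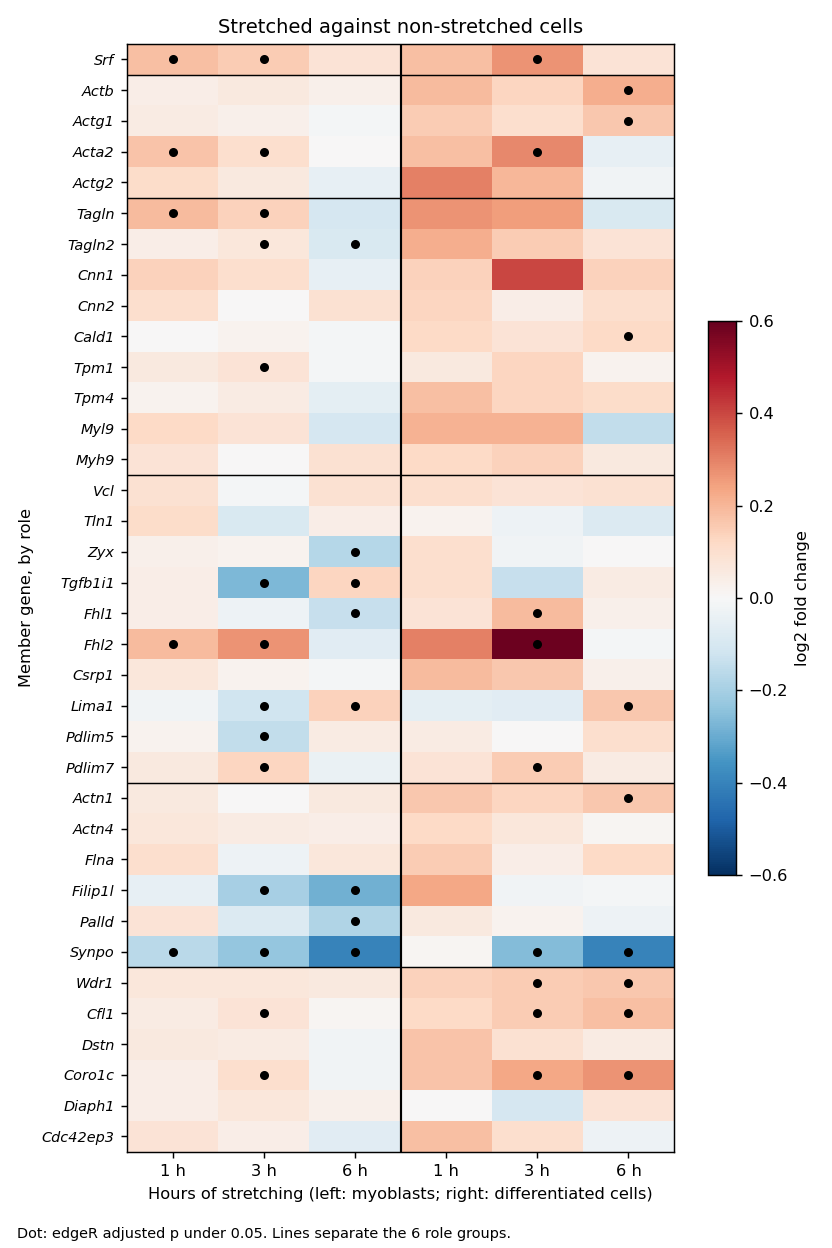
Log2 fold change of stretched against non-stretched cells for each member (rows, by role) at 1 h, 3 h and 6 h in myoblasts (left) and differentiated cells (right), with a dot where the edgeR adjusted p-value was under 0.05. Synpo is blue with a dot in 5 of the 6 columns, Fhl2 in differentiated cells at 3 h is the darkest red, and differentiated cells at 1 h hold no dot.

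Within an experiment the counts differed. With B27 alone (2 libraries against 2), 0, 6 and 2 members changed in myoblasts at the 3 times, and with B31 alone 1, 11 and 3. In differentiated cells with B25 alone, 3, 23 and 19 members changed at the 3 times, of which 21 at 3 h and 14 at 6 h were higher. With B28 alone, 8 members changed at 3 h and 0 at 6 h, and at 1 h B28 had a single stretched library. Shares of all genes were taken only for the edgeR fits without covariates on all libraries of a comparison. The counts within an experiment and without 1 library therefore have no background beside them. Leaving out 1 library at a time moved the count at 1 h in myoblasts from 5 to 3 without non-stretched replicate 9, to 2 without stretched replicate 9 and to 1 when non-stretched replicate 10 or stretched replicate 7, 8 or 10 was dropped. At 6 h in differentiated cells the count was 14 without non-stretched replicate 9, 6 without stretched replicate 7 and 5 when non-stretched replicate 7, 8 or 10 or stretched replicate 8 was dropped. Without replicate 4 it stayed at 0 at 1 h. The calls that held whichever library was left out, among the called members named by rule, were 1 of 5 in myoblasts at 1 h (Fhl2), 9 of 10 at 3 h (all but Acta2) and 7 of 8 at 6 h (all but Tagln2). In differentiated cells they were 7 of 9 at 3 h (all but Acta2 and Cfl1) and 5 of 9 at 6 h (Synpo, Coro1c, Cfl1, Lima1 and Wdr1).

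Srf rose at 1 h and 3 h in myoblasts and at 3 h in differentiated cells. In myoblasts at 1 h its level was 101.8, 105.9, 89.9 and 102.0 CPM in non-stretched replicates 7 to 10 and 114.2, 110.4, 114.6 and 113.7 CPM in stretched ones. Every stretched library lay above every non-stretched one, with a log2 fold change of 0.18 (SE 0.0458, edgeR adjusted p = 0.0387). At 3 h it was between 96.8 and 105.1 CPM without stretch and between 106.8 and 115.4 CPM with it, again without overlap (log2 fold change 0.15, SE 0.0325, edgeR adjusted p = 0.00311). At 6 h the groups still did not overlap, at 104.4 to 108.1 against 108.2 to 116.8 CPM, but the difference did not pass the test (0.08, SE 0.0303, edgeR adjusted p = 0.0838). The call at 1 h was lost in 6 of the 8 fits that left out 1 library, with a log2 fold change between 0.13 and 0.21, as were those of Acta2, Tagln and Synpo at that time.

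After 3 h in differentiated cells, Srf was 88.7, 85.4, 94.2 and 95.2 CPM without stretch and 106.5, 110.6, 107.5 and 112.7 CPM with it. The stretched libraries all lay above, and Srf was 0.27 higher on the log2 scale (SE 0.0394, edgeR adjusted p = 0.00127), with 0.32 in B25 alone and 0.21 in B28 alone. At 1 h stretched replicate 4 was at 119.9 CPM and replicates 7, 8 and 9 at 92.4, 97.2 and 89.5 CPM, against 82.2 to 96.2 CPM without stretch. The log2 fold change there was 0.18 (edgeR adjusted p = 0.632) and 0.08 without replicate 4. At 6 h it was 0.08 (edgeR adjusted p = 0.267), with non-stretched cells at 81.8 to 92.2 CPM and stretched cells at 85.0 to 96.4 CPM.

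Among the actins, the smooth muscle α-actin gene Acta2 was called in the same 3 comparisons as Srf. In myoblasts at 1 h it was 565.4, 573.5, 511.1 and 512.5 CPM without stretch and 627.7, 612.7, 594.4 and 602.3 CPM with it, so the groups did not overlap (log2 fold change 0.17, SE 0.0428, edgeR adjusted p = 0.0348). At 3 h the ranges were 471.2 to 518.4 and 493.2 to 540.5 CPM, which overlap (0.10, SE 0.0347, edgeR adjusted p = 0.048). At 6 h the log2 fold change was 0.00 (SE 0.0447, edgeR adjusted p = 0.98). Acta2 in differentiated cells at 3 h was 1788.4, 1654.9, 2067.2 and 2189.2 CPM without stretch and 2467.5, 2317.7, 2275.8 and 2361.1 CPM with it. All stretched libraries were above the non-stretched ones, and the log2 fold change was 0.29 (SE 0.0793, edgeR adjusted p = 0.0243), with 0.48 in B25 alone and 0.12 in B28 alone (edgeR adjusted p = 0.0911 there), and the call was lost in 3 of the 8 fits that left out 1 library. At 1 h it was 0.18 (edgeR adjusted p = 0.794), or 0.05 without replicate 4, and at 6 h -0.05 (edgeR adjusted p = 0.722).

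The cytoplasmic actin genes Actb and Actg1, the most abundant members, did not pass the test in myoblasts at any time (log2 fold changes between -0.01 and 0.06). Both rose in differentiated cells at 6 h. Actb was 1877.2, 1990.6, 2192.9 and 1946.0 CPM without stretch and 2300.4, 2449.0, 2163.2 and 2402.9 CPM with it, where stretched replicate 9 fell below the highest non-stretched library. Its log2 fold change was 0.22 (SE 0.0586, edgeR adjusted p = 0.0234). Actg1 was between 1827.1 and 1975.3 CPM without stretch and between 2029.8 and 2208.5 CPM with it, without overlap (0.16, SE 0.0437, edgeR adjusted p = 0.0238). Both calls were lost in 5 of the 8 fits that left out 1 library. They were present in B25 alone (0.30 for Actb and 0.21 for Actg1) and absent in B28 alone (0.14, edgeR adjusted p = 0.46, and 0.11, edgeR adjusted p = 0.469). At 1 h and 3 h the log2 fold changes were 0.19 and 0.13 for Actb and 0.15 and 0.10 for Actg1, and none passed. Actg2, the enteric smooth muscle actin, passed the test in no comparison (log2 fold changes 0.11, 0.06 and -0.05 in myoblasts and 0.30, 0.20 and -0.02 in differentiated cells). Its level in differentiated cells at 1 h was 76.0 CPM in stretched replicate 4 against 24.7 to 45.3 CPM in the other 7 libraries, and without that library the log2 fold change was -0.10. At 6 h non-stretched replicate 9 stood at 42.3 CPM, above 22 to 29.4 CPM in the other 7 libraries, and without it Actg2 was 0.25 higher with stretch (edgeR adjusted p = 0.0121).

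**Figure D5:**
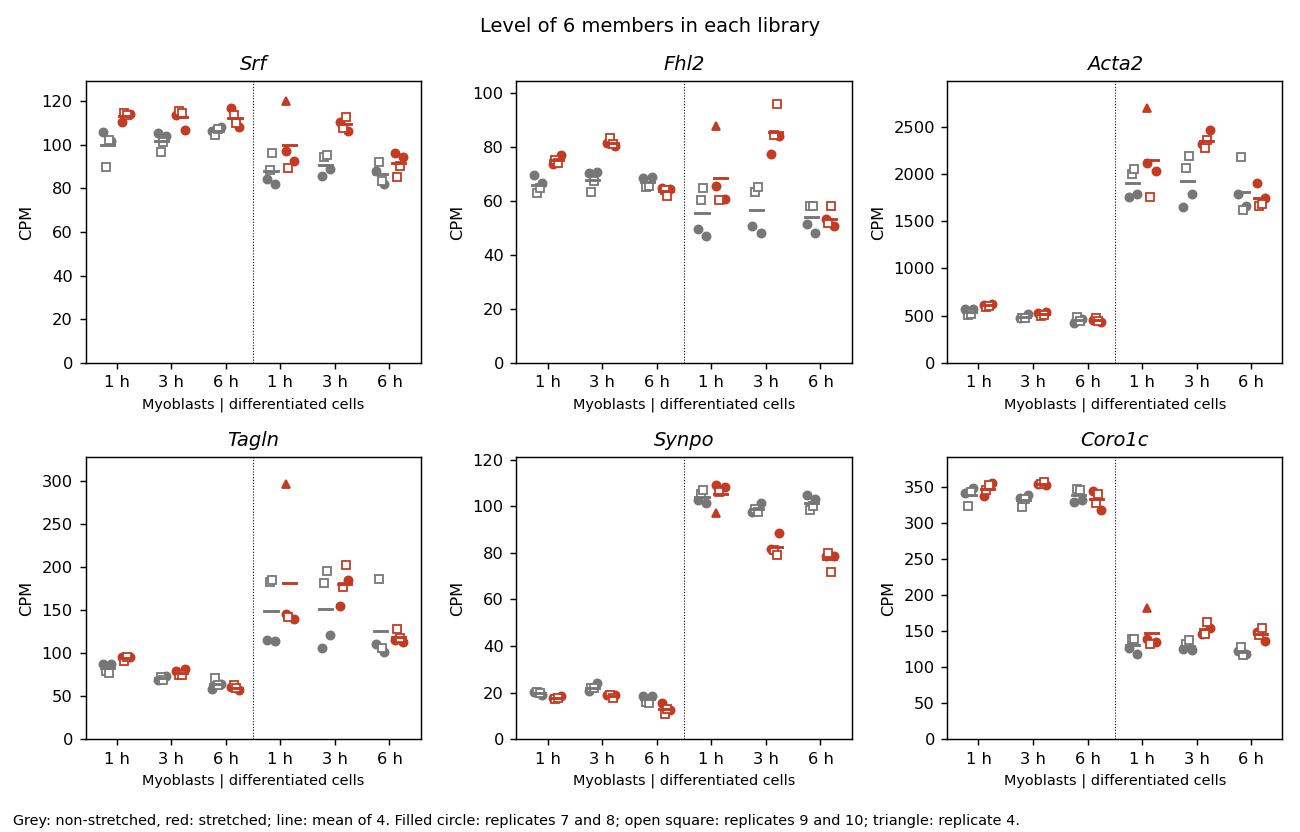
Level in CPM of 6 members in every library of myoblasts and differentiated cells at 1 h, 3 h and 6 h, with stretched libraries in red, non-stretched in grey and a line at the mean of 4. Filled circles are replicates 7 and 8, open squares replicates 9 and 10. Srf and Fhl2 sit higher in stretched cells at 3 h in both stages, Synpo sits lower at 3 h and 6 h, and stretched replicate 4 (triangle) is the highest point for Srf, Fhl2, Acta2, Tagln and Coro1c at 1 h in differentiated cells.

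Of the 9 smooth muscle type actin-binding and contractile genes, 1, 3 and 1 changed in myoblasts at the 3 times, and 0, 0 and 1 in differentiated cells. The shares of all genes given above for each comparison are the background for the counts of each role group. Tagln encodes transgelin, an actin-binding protein used as an early marker of smooth muscle. In myoblasts at 1 h it was 87.9, 87.6, 78.9 and 76.4 CPM without stretch and 95.0, 95.2, 90.9 and 95.7 CPM with it. The stretched libraries lay above the others, with a log2 fold change of 0.19 (SE 0.0472, edgeR adjusted p = 0.0375), and at 3 h the gene was again higher (0.14, SE 0.0351, edgeR adjusted p = 0.00852). Tagln2, its relative outside smooth muscle, rose by 0.07 at 3 h (edgeR adjusted p = 0.0471) and fell by 0.09 at 6 h (edgeR adjusted p = 0.0276). Tpm1, a tropomyosin that lies along the filament, rose by 0.08 at 3 h (edgeR adjusted p = 0.0167). In differentiated cells Tagln spread widely between libraries, from 105.9 to 195.0 CPM without stretch and from 154.6 to 202.9 CPM with it at 3 h, and its log2 fold change of 0.25 did not pass (edgeR adjusted p = 0.342). Cald1, the gene for caldesmon, was the 1 gene of the group that rose there, by 0.12 at 6 h (SE 0.0369, edgeR adjusted p = 0.0467). Cnn1, Cnn2, Tpm4, Myl9 and Myh9, which encode calponins, a tropomyosin and the light and heavy chains of non-sarcomeric myosin, passed the test in no comparison. The largest value among them, 0.40 for Cnn1 in differentiated cells at 3 h, belonged to the least abundant member (edgeR adjusted p = 0.459).

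The focal adhesion and LIM domain genes moved in both directions. Among these 10 genes, 1, 5 and 4 changed in myoblasts at the 3 times, and 0, 3 and 1 in differentiated cells. Fhl2, a LIM-only protein that binds SRF and shuttles between adhesions and the nucleus, showed the largest rise of any member that passed the test. Its level in differentiated cells at 3 h was 48.0, 50.6, 63.6 and 65.1 CPM without stretch and 84.0, 77.4, 84.4 and 96.2 CPM with it. The groups were well apart, with a log2 fold change of 0.59 (SE 0.10, edgeR adjusted p = 0.00248), and of 0.71 in B25 alone and 0.48 in B28 alone. At 6 h the ranges were 48.1 to 58.4 and 50.7 to 58.3 CPM, and the log2 fold change was -0.01 (edgeR adjusted p = 0.918).

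In myoblasts Fhl2 rose at 1 h and 3 h. Its level at 1 h was 66.6, 69.7, 63.2 and 64.9 CPM without stretch and 77.2, 73.9, 75.4 and 74.0 CPM with it (log2 fold change 0.19, SE 0.0351, edgeR adjusted p = 0.00931). At 3 h it was 63.4 to 71.0 against 80.5 to 83.4 CPM (0.27, SE 0.0333, edgeR adjusted p = 6.38e-05). At 6 h all stretched libraries lay below the non-stretched ones, at 61.9 to 64.9 against 65.3 to 69.1 CPM, although the difference of -0.07 did not pass (edgeR adjusted p = 0.101).

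Tgfb1i1 and Lima1 fell at 3 h and rose at 6 h in myoblasts. Tgfb1i1 encodes Hic-5, a relative of paxillin at focal adhesions. At 3 h it was 78.8, 80.9, 76.2 and 79.6 CPM without stretch and 62.3, 68.7, 64.7 and 65.1 CPM with it, a fall of every stretched library below the non-stretched ones (log2 fold change -0.27, SE 0.0319, edgeR adjusted p = 4.84e-05). At 6 h the order was the opposite, with 76.1 to 77.4 CPM without stretch and 81.0 to 86.7 CPM with it (0.13, SE 0.0287, edgeR adjusted p = 0.00797). Lima1 encodes EPLIN, which stabilises filaments and links them to adhesions. At 3 h it was 277.9, 275.4, 291.3 and 283.2 CPM without stretch and 247.8, 265.9, 250.3 and 266.6 CPM with it (-0.12, SE 0.0302, edgeR adjusted p = 0.00759). At 6 h it was 276.8 to 280.5 against 302.7 to 312.8 CPM (0.14, SE 0.0246, edgeR adjusted p = 0.00201). Lima1 rose in differentiated cells at 6 h as well, from 534.3 to 551.4 CPM without stretch to 601.4 to 615.6 CPM with it (0.16, SE 0.0311, edgeR adjusted p = 0.00523). At 3 h there its stretched libraries, 488.9 to 532.8 CPM, all lay below the non-stretched ones, 539.9 to 549.4 CPM, without passing the test (-0.07, edgeR adjusted p = 0.184).

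The other members of this group changed in at most 2 comparisons. Pdlim7, a PDZ and LIM protein of stress fibres, rose by 0.13 in myoblasts at 3 h (edgeR adjusted p = 0.00466) and by 0.15 in differentiated cells at 3 h (edgeR adjusted p = 0.0126). Its relative Pdlim5 fell by 0.15 in myoblasts at 3 h (edgeR adjusted p = 0.000816). Fhl1, a LIM-only protein of muscle, fell by 0.14 in myoblasts at 6 h (edgeR adjusted p = 0.0143) and rose by 0.19 in differentiated cells at 3 h (edgeR adjusted p = 0.00688). Zyx, the gene for zyxin, which moves onto stress fibres under strain, fell by 0.17 in myoblasts at 6 h (SE 0.0392, edgeR adjusted p = 0.0079). Vcl and Tln1, for the vinculin and talin that tie integrins to actin, and Csrp1 passed the test in no comparison, with log2 fold changes between -0.09 and 0.19.

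Of the 6 crosslinker and scaffold genes, 1, 2 and 3 fell in myoblasts at the 3 times, and 0, 1 and 2 changed in differentiated cells. Synpo passed the test in 5 of the 6 comparisons, each time lower. It encodes synaptopodin, an actin-associated protein best known from podocytes and dendritic spines. Its level in differentiated cells at 6 h was 103.0, 104.8, 98.3 and 100.1 CPM without stretch and 78.6, 78.5, 79.9 and 71.9 CPM with it. The groups were far apart, with a log2 fold change of -0.40 (SE 0.0383, edgeR adjusted p = 0.00027). At 3 h it was 97.6 to 101.5 against 79.2 to 88.7 CPM (-0.26, SE 0.0354, edgeR adjusted p = 0.000905). At 1 h the difference was 0.01 (edgeR adjusted p = 0.972), so in these cells Synpo passed the test at 3 h and 6 h but not at 1 h.

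In myoblasts, where Synpo was at 2.46 CPM per kb without stretch against 12.7 CPM per kb in differentiated cells, it fell at all 3 times. It was 19.0 to 20.4 CPM without stretch and 17.4 to 18.3 CPM with it at 1 h (log2 fold change -0.16, SE 0.0391, edgeR adjusted p = 0.0322), and 20.6 to 24.1 against 17.8 to 19.0 CPM at 3 h (-0.23, SE 0.0464, edgeR adjusted p = 0.00216). At 6 h it was 18.4, 18.7, 15.8 and 15.5 CPM without stretch and 12.7, 15.6, 10.8 and 12.8 CPM with it, where 1 stretched library reached into the non-stretched range (-0.40, SE 0.0992, edgeR adjusted p = 0.0123). Filip1l, named for its likeness to a filamin A partner, fell beside it. It was 102.2 to 111.5 against 82.4 to 97.5 CPM at 3 h (-0.20, SE 0.0457, edgeR adjusted p = 0.00424) and 95.5 to 108.2 against 82.9 to 87.4 CPM at 6 h (-0.29, SE 0.0408, edgeR adjusted p = 0.000617). Palld, for palladin, fell by 0.18 at 6 h (SE 0.0284, edgeR adjusted p = 0.001).

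Filip1l passed the test at no time in stretched against non-stretched differentiated cells. At 1 h its stretched libraries, 142.0 to 162.9 CPM, all lay above the non-stretched ones, 126.8 to 131.6 CPM, and the log2 fold change of 0.23 fell short of the limit (edgeR adjusted p = 0.0671). At 3 h and 6 h the values were -0.02 and -0.01 (edgeR adjusted p = 0.695 and 0.86). Actn1, an α-actinin that bundles filaments, rose by 0.16 at 6 h (SE 0.0464, edgeR adjusted p = 0.0356). Actn4 and Flna, for the other α-actinin and filamin A, passed the test in no comparison.

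The genes of filament turnover rose, where they changed at all: 0, 2 and 0 of 6 in myoblasts at the 3 times, and 0, 3 and 3 of 6 in differentiated cells. Of all genes, 16% were higher in myoblasts at 3 h, and 10.8% and 11.5% in differentiated cells at 3 h and 6 h. Coro1c encodes a coronin that helps to recycle branched filaments. After 6 h in differentiated cells it was 118.4, 122.7, 128.5 and 116.3 CPM without stretch and 136.1, 149.4, 144.2 and 154.7 CPM with it (log2 fold change 0.27, SE 0.0473, edgeR adjusted p = 0.00367). At 3 h it was 123.3 to 138.4 against 145.8 to 163.5 CPM (0.23, SE 0.0476, edgeR adjusted p = 0.00597). In neither case did the groups overlap, and in myoblasts at 3 h they were also apart, at 322.1 to 339.2 against 353.4 to 357.8 CPM, by the smaller step of 0.10 (SE 0.023, edgeR adjusted p = 0.00457).

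Cfl1, for the filament-severing cofilin, and Wdr1, for a protein that helps cofilin to take filaments apart, rose with Coro1c in differentiated cells. Cfl1 was 468.9 to 515.0 against 536.7 to 568.4 CPM at 6 h (log2 fold change 0.18, SE 0.0393, edgeR adjusted p = 0.00862) and 0.15 higher at 3 h (edgeR adjusted p = 0.0251). Wdr1 was 275.7 to 302.2 against 309.9 to 335.1 CPM at 6 h (0.16, SE 0.0384, edgeR adjusted p = 0.016) and 0.15 higher at 3 h (edgeR adjusted p = 0.0037). For both, no stretched library reached into the non-stretched range at either time. In myoblasts Cfl1 rose by 0.08 at 3 h (edgeR adjusted p = 0.0272). Dstn, a cofilin relative, Diaph1, a formin that builds unbranched filaments, and Cdc42ep3, a Cdc42 effector, passed the test in no comparison.

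Whether an effect differed between times was tested as the interaction of stretching and time, in the 24 libraries of a stage, and the 3 contrasts of a stage share libraries. In myoblasts, the effect at 3 h differed from that at 1 h for 2 members (10.9% of all genes differed), that at 6 h from 1 h for 10 members (21.1% of all genes), 9 of them lower at 6 h (9.42% of all genes), and that at 6 h from 3 h for 9 members (26.5% of all genes), 6 of them lower (12.2% of all genes). Fhl2 was lower at 6 h than at 3 h by 0.34 on the log2 scale (SE 0.0472, edgeR adjusted p = 1.1e-05) and Tagln by 0.24 (edgeR adjusted p = 0.0146). Tgfb1i1 was higher at 6 h than at 3 h by 0.40 (SE 0.0537, edgeR adjusted p = 6.89e-06), Lima1 by 0.27 (edgeR adjusted p = 0.000133) and Pdlim5 by 0.20 (edgeR adjusted p = 0.00282). The count for 6 h against 1 h was 6 when non-stretched replicate 7 or 9 or stretched replicate 7 of 6 h was dropped, and that for 3 h against 1 h was 1 without stretched replicate 9 of 1 h. For Srf no contrast between times passed in either stage.

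In differentiated cells the effect differed for 2 members between 3 h and 1 h (5.15% of all genes), for 3 between 6 h and 1 h (11.9% of all genes) and for 2 between 6 h and 3 h (12% of all genes). With experiment as a covariate these counts were 4, 6 and 5, and the shares of all genes were not taken in that fit. The members, without that covariate, were Synpo (-0.27 at 3 h and -0.41 at 6 h, each against 1 h, edgeR adjusted p = 0.00515 and 8.27e-05), Filip1l (-0.25 at both, edgeR adjusted p = 0.00776 and 0.00521), Lima1 (0.22 at 6 h against 1 h and 0.23 against 3 h, edgeR adjusted p = 0.00136 and 0.00103) and Fhl2 (-0.60 at 6 h against 3 h, SE 0.17, edgeR adjusted p = 0.0228). The 1 h effect of this stage includes the stretched replicate 4. Without stretched replicate 9 of 1 h, 5 members differed between 6 h and 1 h. Between 6 h and 3 h, 3 differed without replicate 4 and 1 when non-stretched replicate 7 or 8 or stretched replicate 10 of 3 h was dropped.

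Between stages, the effect was compared as the interaction of stretching and stage in the 16 libraries of a time. Here too, stage cannot be told apart from experiment, serum or plating density. No member differed at 1 h, where 0% of all genes did (edgeR, with 2 members at an unadjusted p under 0.05), and none at 3 h, where 1.79% of all genes did (6 members at an unadjusted p under 0.05, 3 by DESeq2, Fhl1, Pdlim5 and Filip1l, and 3 with experiment as a covariate, Fhl1, Fhl2 and Pdlim5). At 6 h the effect in differentiated cells exceeded that in myoblasts for 2 members, against 5.18% of all genes. By DESeq2 there were 8, and the share of all genes was not taken there. Without non-stretched replicate 9 of the differentiated cells the count was 9, without stretched replicate 9 it was 5, and without stretched replicate 10 of the myoblasts it was 4. The called members were Coro1c, by 0.28 (SE 0.0606, edgeR adjusted p = 0.0141), and Filip1l, by 0.27 (SE 0.0601, edgeR adjusted p = 0.0182). For Fhl2 at 3 h the difference of 0.31 did not pass (edgeR adjusted p = 0.219).

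Members with and without an exact CArG box can be set side by side. Of the 9 with an exact box, 2, 4 and 3 changed in myoblasts at the 3 times, with 0, 3 and 2 in differentiated cells. Of the 21 with a promoter but no exact box, 1, 7 and 3 changed in myoblasts and 0, 5 and 5 in differentiated cells. Background for these counts is the share of all genes given above for each comparison. These 21 include Acta2 and Dstn, whose promoters held boxes with 1 central base off the motif. The 6 members without a matched promoter are in neither group, and boxes outside the promoter windows were not looked for. The split therefore does not separate SRF targets from other genes, and the part of a box in the response was not tested. Among members with an exact box, Srf and Fhl2 rose in both stages and Myl9 passed the test in no comparison. Of the genes with the same CCTTATAAGG letters, Filip1l fell in myoblasts, Lima1 both rose and fell, and Cnn2 and Vcl passed in no comparison. The median log2 fold change with and without an exact box was 0.09 and 0.06 in myoblasts at 1 h. In myoblasts it was 0.00 and 0.05 at 3 h, and -0.01 and -0.01 at 6 h. In differentiated cells it was 0.15 and 0.14 at 1 h, 0.10 and 0.13 at 3 h, and 0.08 and 0.06 at 6 h.

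Other genes of the pathway, none of them members, gave values beside those of the members. Neither Mkl1 nor Mkl2, which encode cofactors of SRF, passed in any comparison of stretched with non-stretched cells. Of the 14 genes for the Arp2/3 complex and capping proteins, which build and cap branched filaments, 8 rose in myoblasts at 3 h, by between 0.07 and 0.10. There 16% of all genes were higher. In myoblasts at 1 h and 6 h 0 changed by edgeR (1 and 2 at an unadjusted p under 0.05). In differentiated cells 0 changed at 1 h (0 at an unadjusted p under 0.05), and Actr3 was the 1 that rose at 3 h and at 6 h (0.13 and 0.16). Of paralogs of the members, such as sarcomeric actins, α-actinins and LIM proteins, 1, 7 and 6 of 27 tested changed in myoblasts and 0, 7 and 5 of 30 in differentiated cells. Of all genes, 5.92%, 31.9% and 27.2% changed in myoblasts at the 3 times, and 0.663%, 22.2% and 22.3% in differentiated cells. Among those that changed were Ldb3, for a Z-disc protein, at -0.48 in myoblasts at 3 h and Myh14, for a non-sarcomeric myosin, at -0.49 in differentiated cells at 6 h.

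Immediate early genes, many of them known SRF targets and 12 in the list, gave a scale for the members' changes. In myoblasts at 1 h, 10 of the 12 rose by edgeR (1.67% of all genes were higher), with Fos up by 2.16, Fosb by 2.09 and Egr1 by 1.4 on the log2 scale. In the same comparison Srf, Acta2, Tagln and Fhl2, the 4 members that rose, were up by between 0.17 and 0.19. At 6 h, 6 of the 12 were lower in stretched myoblasts and 0 higher, with Egr1 at -0.54 and Egr2 at -0.51, and at 3 h 6 were higher and 1 lower. Of all genes in myoblasts, 13% were lower at 6 h, and at 3 h 16% were higher and 15.8% lower. In differentiated cells at 1 h, all 12 were above 0, and 10 of the 12 had an unadjusted p under 0.05 by edgeR. Of these, 3 rose past the test (Fosb by 4.01, Fos by 2.76 and Cyr61 by 1.83), where 0.663% of all genes changed. The median log2 fold change of the 12 was 1.23 there and 0.57 in myoblasts at 1 h. At 3 h in differentiated cells 6 rose and 1 fell (10.8% and 11.4% of all genes), and at 6 h 1 rose and 7 fell (11.5% and 10.8%).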

How the data were processed

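RNA sequencing libraries of 48 C2C12 samples were analysed. The authors deposited whole-number read counts per gene symbol, a table per stage, made with STAR and Salmon on the Ensembl mm10 genome, from stranded mRNA libraries. The labels call the molecule nuclear RNA, while the study's methods describe extraction from washed cells and mention no isolation of nuclei. All 48 columns were used. Groups and replicates came from the labels. Per the study's methods, replicates were separate samples from independent experiments, 2 for myoblasts and 3 for differentiated cells, and 2 samples can share an experiment, so p-values measure only the spread between these samples. No replicates agreed within sampling noise (lowest chi-square per gene 3.06).

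Counts were scaled by TMM, filtered by filterByExpr and tested in R 4.3.3 by quasi-likelihood in edgeR 4.0.16 on each stage and time (4 against 4 libraries) without covariates, and with Benjamini-Hochberg adjustment over all genes. CPM use the same scaling within a stage. Scripts were tested on simulated data. Alternatives were RLE scaling, DESeq2 1.42.0, other filters, all 24 libraries of a stage, experiment as a covariate or alone, a replicate block and leaving out each library. Same-numbered samples deviated together (r over 0.1) in 11 of 23 pairs, with r between -0.084 and 0.395. These values do not settle whether same-numbered samples were pairs. The main test used neither pairs nor experiment, and the fits with a replicate block or with experiment as a covariate are given beside it.

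Members and lists were chosen with earlier results of these data known. Named in every comparison were Srf and the actins, with the called members of largest change up to 8 in all, and in each role group 2 to 4 of largest change. Further members were named after their values were seen. The result of 1 gene list is not reported here. Promoters came from RefSeq (GRCm38.p6) and exons from GENCODE vM21.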

Additional observations from a re-analysis of the deposited data

Results flagged for a closer look

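In 126 groups of 4 libraries, a library far from the other 3 was found 8 times by Dixon's test (critical value 0.829), which chance gives in about 1 of 20 groups. In differentiated cells at 1 h, stretched replicate 4 was high for Actb (3129.7 CPM, next 2312.9 CPM), Actg1 (2782.5 CPM, next 2112.4 CPM) and Actg2 (76 CPM, next 34.4 CPM). At 6 h non-stretched replicate 9 was high for Actg2 (42.3 CPM, next 25.1 CPM). In stretched myoblasts, Tagln was low in replicate 9 at 1 h (90.9 CPM), Synpo in replicate 10 at 3 h (17.8 CPM), and Actg1 (4767.5 CPM) and Fhl1 (220.3 CPM) in replicate 7 at 6 h.

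The stretch effect differed between times or stages in 30 tests of an interaction (edgeR, adjusted p under 0.05). In myoblasts, as a log2 difference of 6 h against 1 h, it was lower for Tagln (-0.29), Palld (-0.27), Fhl2 (-0.26), Filip1l (-0.24), Zyx (-0.21), Acta2 (-0.18), Fhl1 (-0.18), Cdc42ep3 (-0.16) and Tagln2 (-0.13), and higher for Lima1 (0.16). For 6 h against 3 h it was lower for Fhl2 (-0.34), Tagln (-0.24), Zyx (-0.18), Tagln2 (-0.16), Pdlim7 (-0.16) and Coro1c (-0.12), and higher for Tgfb1i1 (0.40), Lima1 (0.27) and Pdlim5 (0.20). For 3 h against 1 h it was lower for Tgfb1i1 (-0.32) and Pdlim5 (-0.18).

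In differentiated cells the effect was lower at 3 h than at 1 h for Synpo (-0.27) and Filip1l (-0.25), and at 6 h than at 1 h for Synpo (-0.41) and Filip1l (-0.25), while that of Lima1 was higher (0.22). For 6 h against 3 h it was lower for Fhl2 (-0.60) and higher for Lima1 (0.23). At 6 h, differentiated cells exceeded myoblasts for Coro1c (0.28) and Filip1l (0.27).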

How the results depend on the processing

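Calls of named members kept their direction in all 41 cases under DESeq2, RLE scaling and experiment as a covariate, and passed the test there too. They were lost in 11 of 41 with all 24 libraries of a stage, 1 with a minimum of 10 counts, 2 with no filter and 6 with the replicate block (Srf and Synpo in myoblasts at 1 h, Tagln2 there at 6 h, and Actb, Actg1 and Cald1 in differentiated cells at 6 h). Cald1 was also the 1 lost with a minimum of 10 counts, and with Tagln2 the pair lost with no filter. With the study's fold limit the counts were 0 in myoblasts at all 3 times, and 0, 1 and 0 in differentiated cells. The cause of the shifts that follow was not tested, beyond the fewer libraries in a single experiment. In myoblasts the replicate block gave 3 at 1 h and all 24 libraries gave 9 at 3 h. B27 alone gave 0, 6 and 2 at the 3 times, and B31 alone 1 at 1 h and 3 at 6 h. In differentiated cells at 1 h, DESeq2, all 24 libraries and experiment as a covariate each gave 1, and B25 alone 3. At 3 h the covariate gave 14 and B25 alone 23. At 6 h all 24 libraries gave 4, B25 alone 19 and B28 alone 0. With experiment as a covariate, differences between times in differentiated cells numbered 4, 6 and 5. Between stages at 3 h there were 1 with RLE scaling, 3 with DESeq2, 3 with the covariate and 1 with the replicate block, and at 6 h 8 with DESeq2. The share of all genes was not taken in these alternatives or without 1 library, so their counts have no background.

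Without 1 library, counts ranged from 1 to 4, 10 to 16 and 7 to 11 in myoblasts and 0 to 0, 7 to 13 and 5 to 14 in differentiated cells. Differences between times ranged from 1 to 3, 6 to 10 and 6 to 11 in myoblasts, and 2 to 2, 3 to 5 and 1 to 3 in differentiated cells, and those between stages from 0 to 0, 0 to 2 and 2 to 9.

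Signs were followed for named members only, and by the naming rule those that had not passed the test were Srf or actins. Among these results the sign turned only for actins. Other members that had not passed were not checked. In myoblasts at 1 h Actb was -0.04 in B27 and -0.01 without non-stretched replicate 9, and Actg1 -0.01 in B27. At 3 h Actg1 was -0.01 in B27. Actg1 at 6 h was 0.02 in B31 and, with 1 library left out, between -0.02 and 0.02, with 0.01 without non-stretched replicate 10 and 0.02 without stretched replicate 7, and Actg2 0.01 in B31. In differentiated cells Actg2 at 1 h lay between -0.10 (without stretched replicate 4) and 0.45, and it was -0.01 at 3 h in B28. At 6 h Acta2 was 0.08 in B25 and 0.05 without non-stretched replicate 9, and Actg2 0.03 with the replicate block, 0.18 in B25, and between -0.12 and 0.25 with 1 library left out (0.25, adjusted p = 0.0121 by edgeR, without non-stretched replicate 9 and 0.01 without stretched replicate 7). B28 at 1 h, with 1 stretched library, and B17, with 1 library, were not run alone.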
